A study of Homo sapiens with 6 samples.

Results

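Reelin and its receptor pathway was taken as 7 genes, RELN, LRP8, VLDLR, DAB1, DAB2IP, CRK and CRKL, found by their symbols in a table of 29804. All 7 passed the filter on low counts and were among the 14672 genes tested. RELN was selected on its own measured values, namely its place among the strongest differences between 6WP and WT cells, so its levels and fold changes are given as a description with no p-value. The other 6, its receptors and their intracellular partners, were added because they act with reelin, with earlier results of these data known.

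RNA-seq was carried out on 22Rv1, a human prostate carcinoma epithelial cell line that retains the androgen receptor, to find what repeated DNA damage and repair leaves behind in surviving cells. WT cells received no treatment and were collected at week 0. AM cells, the age matched control, were kept for 6 weeks without treatment. 6WP cells were kept for the same 6 weeks and received 1 µg/ml phleomycin on every week day. Phleomycin is a radiomimetic that breaks DNA, and per the methods each exposure was short and was followed by washing. The labels give the genotype of all 3 groups as WT, so the group name WT stands for untreated week 0 cells and not for an allele that the others lack. Each group held 2 libraries, which the labels call biological replicates without saying whether their cultures were separate through the 6 weeks. The p-values therefore measure the spread between these libraries. A single cell line was used, so nothing here bears on other prostate cells.

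Reelin is a large secreted glycoprotein of the extracellular matrix, best known for guiding the layering of migrating neurons in the developing brain. It binds the lipoprotein receptors ApoER2, encoded by LRP8, and VLDLR. The clustered receptors bring Src family kinases to the adaptor DAB1, and phosphorylated DAB1 then docks CRK and CRKL and activates PI3-kinase. DAB2IP, a GTPase-activating protein for Ras that binds DAB1 and its relative DAB2, is often silenced in prostate cancer.

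The windows below are shown because RELN and DAB1 are the members whose levels moved most between the groups, and CRKL is a member with steady levels for comparison. They are the 250 bases before a RefSeq start site in GRCh38.p14, read 5′ to 3′ on the strand of the gene. Capitals mark copies of GGGCGG, the GC box bound by Sp1-type factors, and of CACGTG, an E-box, on either strand, and neighbouring copies run together where they overlap. RELN, at chr7:103989659-103989908 on the minus strand, DAB1, at chr1:58546727-58546976 on the minus strand, and CRKL, at chr22:20917157-20917406 on the plus strand, read as follows.
RELN: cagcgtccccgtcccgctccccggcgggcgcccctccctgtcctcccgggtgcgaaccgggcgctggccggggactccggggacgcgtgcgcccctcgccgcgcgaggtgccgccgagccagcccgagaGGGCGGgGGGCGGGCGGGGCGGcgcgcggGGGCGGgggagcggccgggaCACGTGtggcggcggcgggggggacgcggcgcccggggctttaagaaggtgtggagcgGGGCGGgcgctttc
DAB1: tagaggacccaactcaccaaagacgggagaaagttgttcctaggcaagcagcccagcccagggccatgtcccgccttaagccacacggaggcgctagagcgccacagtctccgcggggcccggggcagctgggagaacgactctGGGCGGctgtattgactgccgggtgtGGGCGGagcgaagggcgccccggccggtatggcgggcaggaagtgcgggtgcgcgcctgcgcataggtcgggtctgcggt
CRKL: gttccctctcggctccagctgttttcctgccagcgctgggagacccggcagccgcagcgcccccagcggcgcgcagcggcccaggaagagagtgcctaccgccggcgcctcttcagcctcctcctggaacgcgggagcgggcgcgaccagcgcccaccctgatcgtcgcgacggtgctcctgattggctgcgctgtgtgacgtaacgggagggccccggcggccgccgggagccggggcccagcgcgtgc

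The RELN window held 43 CG dinucleotides and was 83.2% G or C, against medians of 11 CG and 58.0% over 35116 RefSeq windows of the same length. Of all windows, 99.0% had fewer CG dinucleotides. It held 6 copies of GGGCGG, a motif found in 42.64% of all windows, and 1 copy of CACGTG, found in 6.34%. DAB1 has 6 RefSeq start sites spread over more than 1 megabase, and the window shown, which ends 8 bases inside the GENCODE start, held 23 CG and 2 GC boxes. The most CG-rich of its start sites had 41 CG. The windows of LRP8 (31 CG), VLDLR (41 CG), CRK (34 CG) and CRKL (32 CG) also lay above the median, and the 3 windows of DAB2IP held 10, 28 and 4. TGATGNAA, the composite element of ATF4 and C/EBP factors, was searched on both strands and was found in 3.14% of all windows, and these letters were in none of the members' windows. Matches of this kind describe the sequence and say nothing of which factor binds it.

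Library totals ranged from 21222201 to 35311945 counts, and a gene with 3 counts corresponds to 0.0883 to 0.138 counts per 1000000 (CPM) after TMM scaling. On the log2 scale the typical (median) SD within a pair of libraries was 0.0854 for WT, 0.0911 for AM and 0.196 for 6WP, so the 6WP libraries differed more from each other. All 12 genes of a luminal and androgen receptor marker list were detected in every library, with summed levels of 2554 to 4463 CPM. Markers of other cell types in which reelin is known were at low summed levels, with some detected and others at 0. A list of 7 Cajal-Retzius cell markers summed to 1.18 to 3.63 CPM, with 2 to 3 detected at 3 counts or more in a library, among them TP73 (25 to 28 counts) and NDNF (6 to 54 counts), and EBF3 at 0 in every library. A list of 7 interneuron markers summed to 2.67 to 9.83 CPM, with NPY (48 to 246 counts), LHX6 (9 to 29) and GAD1 (4 to 15) detected in every library and GAD2, SLC32A1 and SST at 0. Endothelial markers summed to 2.93 to 5.63 CPM with LYVE1, PDPN and CDH5 at 0, and leukocyte markers to 3.11 to 3.96 CPM with PTPRC and CD3E at 0. The fibroblast and stellate cell list summed to 20.7 to 25.1 CPM in WT, 2.94 to 4.43 in AM and 3.88 to 7.05 in 6WP cells, with DES at 0. Its AM and 6WP ranges overlapped and its highest values were in WT cells, and its part in the results was not tested.

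RELN, the ligand, spans bases 103471381 to 103989658 of chromosome 7 (GENCODE 44, GRCh38, minus strand), and GENCODE places no other exon over its own. Its level was 24.2 and 21.0 CPM in WT, 8.05 and 9.30 in AM, and 74.9 and 72.0 in 6WP libraries. These values rested on 541 and 457 counts in WT, 187 and 316 in AM, and 2071 and 2044 in 6WP cells. The 3 groups did not overlap, with AM lowest, WT between and 6WP highest. The gap between 6WP and WT is what RELN was selected on. How many of all tested genes have such an order was not counted. The means were 22.6 ± 2.23, 8.68 ± 0.89 and 73.5 ± 2.02 CPM (SD, n = 2 each). In bulk RNA, more cells with RELN transcripts and more transcripts per cell cannot be told apart.

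RELN was 3.25-fold higher in 6WP than in WT cells (95% interval 2.63 to 4.02), a log2 fold change of 1.70 with a standard error of 0.13. Against AM cells the same libraries were 8.44-fold higher (95% interval 6.74 to 10.6), a log2 fold change of 3.08 with a standard error of 0.14. AM cells had 2.59-fold less RELN than WT cells, a log2 fold change of -1.37 with a standard error of 0.14. The comparisons share libraries, so the AM value enters both of the last. RELN was selected on its 6WP and WT values, and its intervals and standard errors do not allow for that selection. Time in culture without treatment thus went with a lower level, and the treated cells of the same age had a higher one. Over 14 other settings, including leaving out each library, the log2 fold change stayed between 1.60 and 1.81 for 6WP against WT, between 2.98 and 3.19 for 6WP against AM, and between -1.50 and -1.26 for AM against WT. These settings reuse the libraries on which RELN was selected, so they are no independent check.

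**Figure D1:**
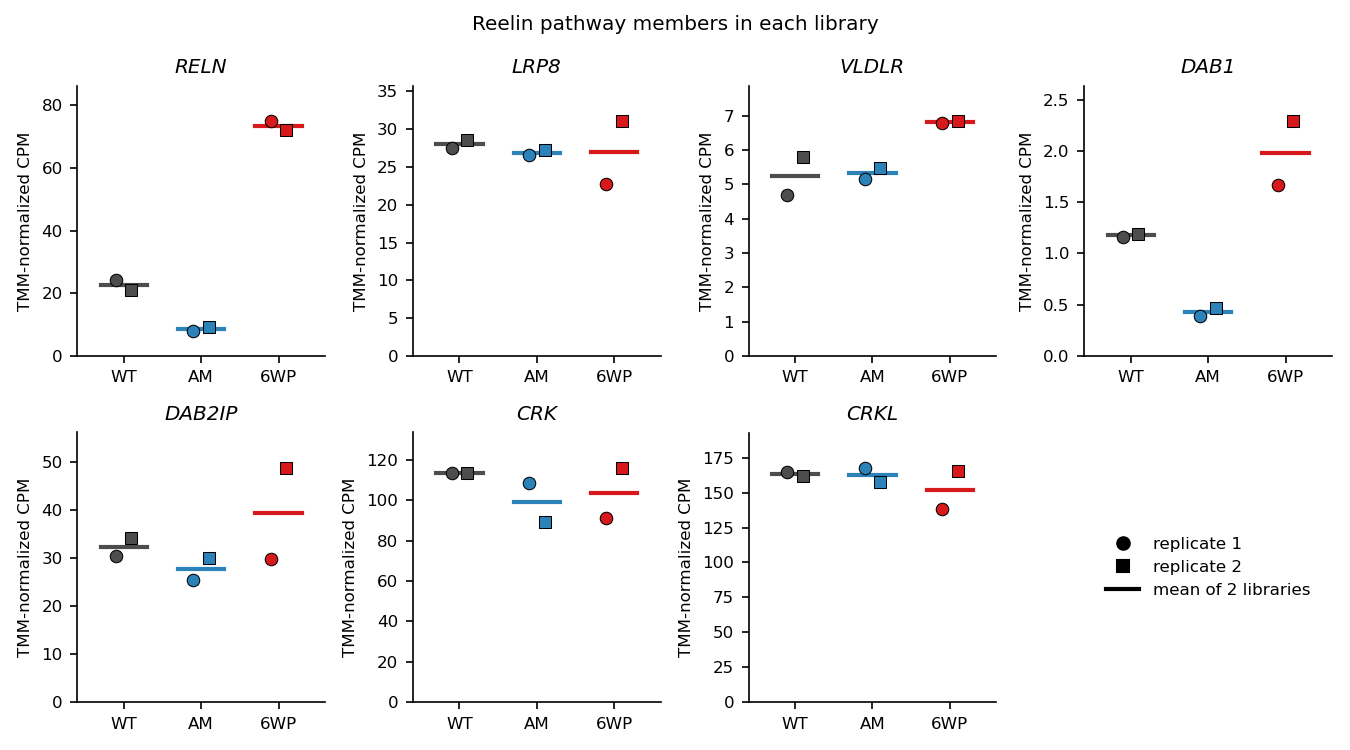
TMM-normalized CPM (y axis, from 0) of each of the 7 members in the WT, AM and 6WP groups (x axis), with a circle for replicate 1, a square for replicate 2 and a bar for the mean of 2 libraries. RELN and DAB1 have the order AM, WT, 6WP with no overlap, while LRP8, CRK and CRKL vary more between the 6WP replicates than between groups. How many of all genes have that order was not counted.

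The receptors showed no change that passed the test. LRP8 lies on chromosome 1 from 53242364 to 53328469 on the minus strand. It was at 27.5 and 28.6 CPM in WT, 26.6 and 27.2 in AM, and 22.8 and 31.0 in 6WP libraries. The WT and AM values fell within the range of the 6WP libraries, which lay on both sides of them. The log2 fold change of LRP8 was -0.06 in 6WP against WT cells (95% interval -0.43 to 0.31, adjusted p = 0.870) and 0.00074 in 6WP against AM cells (95% interval -0.37 to 0.37, adjusted p = 0.998). Between AM and WT cells it was -0.06 (95% interval -0.43 to 0.31, adjusted p = 0.820). A change of LRP8 as large as that of RELN lay outside each of these intervals.

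VLDLR lies on chromosome 9 from 2621182 to 2660056 on the plus strand. It was at 4.69 and 5.79 CPM in WT, 5.17 and 5.48 in AM, and 6.80 and 6.84 in 6WP libraries. Both 6WP values lay above all others, and the WT and AM ranges overlapped. The log2 fold change was 0.38 in 6WP against WT cells (standard error 0.19, adjusted p = 0.289) and 0.36 in 6WP against AM cells (standard error 0.19, adjusted p = 0.210), and neither passed. Between AM and WT cells it was 0.02 (95% interval -0.42 to 0.47, adjusted p = 0.940). VLDLR shares 260 bases of exon sequence with VLDLR-AS1 on the opposite strand, and 1100 bases with another opposite-strand locus, so its reads cannot be assigned with certainty unless strand was used in counting. Exons of LRP8 likewise overlap 4 loci on the opposite strand.

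DAB1, the adaptor that is phosphorylated when reelin binds, was the only 1 of the 6 partners called in the main fit. It was called only in the comparisons with AM cells. Of all tested genes, 21.3% were called in 6WP against AM cells and 17.7% in AM against WT cells. A change of the other partners that did not pass is not excluded. The gene covers 1551957 bases of chromosome 1, from 56994778 to 58546734 (minus strand). Its level was 1.16 and 1.19 CPM in WT, 0.387 and 0.471 in AM, and 1.66 and 2.29 in 6WP libraries. The groups did not overlap and stood in the same order as those of RELN. The share of all tested genes with such an order was not counted. The counts were small, at 26 in each WT library, 9 and 16 for AM, and 46 and 65 for 6WP.

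DAB1 was 4.51-fold higher in 6WP than in AM cells (95% interval 2.62 to 7.79), or 2.17 on the log2 scale (standard error 0.34, adjusted p = 0.00681). AM cells had less DAB1 than WT cells, by a log2 difference of -1.43 (standard error 0.37, adjusted p = 0.0338). Between 6WP and WT cells it was 0.75 (95% interval 0.04 to 1.46), with an unadjusted p = 0.0417 from edgeR and an adjusted p = 0.205, which did not pass. The call in 6WP against AM cells was lost without AM replicate 1 (adjusted p = 0.0769) and without AM replicate 2 (adjusted p = 0.0717). The call in AM against WT cells was lost without WT replicate 1 (adjusted p = 0.171), WT replicate 2 (0.198), AM replicate 1 (0.173) or AM replicate 2 (0.176), and with DESeq2 (adjusted p = 0.0544). Exons of DAB1 share 257 bases with OMA1 on the same strand. OMA1 had log2 fold changes of -0.01 for 6WP against WT, -0.30 for 6WP against AM and 0.29 for AM against WT, none of which passed. In both comparisons with AM cells OMA1 had the opposite sign to DAB1.

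DAB2IP, the GTPase-activating protein, lies on chromosome 9 from 121567057 to 121785530 on the plus strand. It was at 30.5 and 34.1 CPM in WT, 25.4 and 30.1 in AM, and 29.9 and 48.8 in 6WP libraries. The high 6WP mean came from replicate 2, since replicate 1 lay below both WT libraries. The log2 fold changes were 0.29 (standard error 0.22, adjusted p = 0.481) against WT and 0.50 (standard error 0.22, adjusted p = 0.139) against AM cells, and -0.22 (standard error 0.22, adjusted p = 0.515) for AM relative to WT. Without 6WP replicate 2 the value against WT cells was -0.14, and without 6WP replicate 1 it was 0.58. Against AM cells it was 0.07 without 6WP replicate 2 and 0.81 without 6WP replicate 1. With a single 6WP library left, the spread in the fit came from the WT and AM pairs. Those pairs differed less (median SD 0.0854 and 0.0911 on the log2 scale, against 0.196 for 6WP), so no p-value is given for these fits. The summed luminal markers were also higher in 6WP replicate 2, at 4463 CPM, than in replicate 1, at 3077 CPM, and their part in this difference was not tested.

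CRK and CRKL, the SH2 and SH3 adaptors that dock on phosphorylated DAB1, were the most abundant members and did not pass in any comparison. CRK, on chromosome 17 from 1420689 to 1463162 on the minus strand, was at 113 and 114 CPM in WT, 108 and 89.4 in AM, and 91.2 and 116 in 6WP libraries. CRKL, on chromosome 22 from 20917407 to 20953747 on the plus strand, was at 165 and 162 CPM in WT, 168 and 158 in AM, and 138 and 165 in 6WP libraries. For both genes 6WP replicate 1 was lower than replicate 2. The log2 fold change of CRK was -0.13 in 6WP against WT cells (95% interval -0.47 to 0.21, adjusted p = 0.641), 0.07 in 6WP against AM cells (adjusted p = 0.768) and -0.20 in AM against WT cells (adjusted p = 0.367). That of CRKL was -0.11 (95% interval -0.38 to 0.17, adjusted p = 0.635), -0.10 (adjusted p = 0.571) and -0.0062 (adjusted p = 0.975) in the same order. Without 6WP replicate 2, the log2 fold change was -0.34 for CRK against WT cells and -0.27 for CRKL against AM cells. Without 6WP replicate 1 these values were 0.016 and 0.021.

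**Figure D2:**
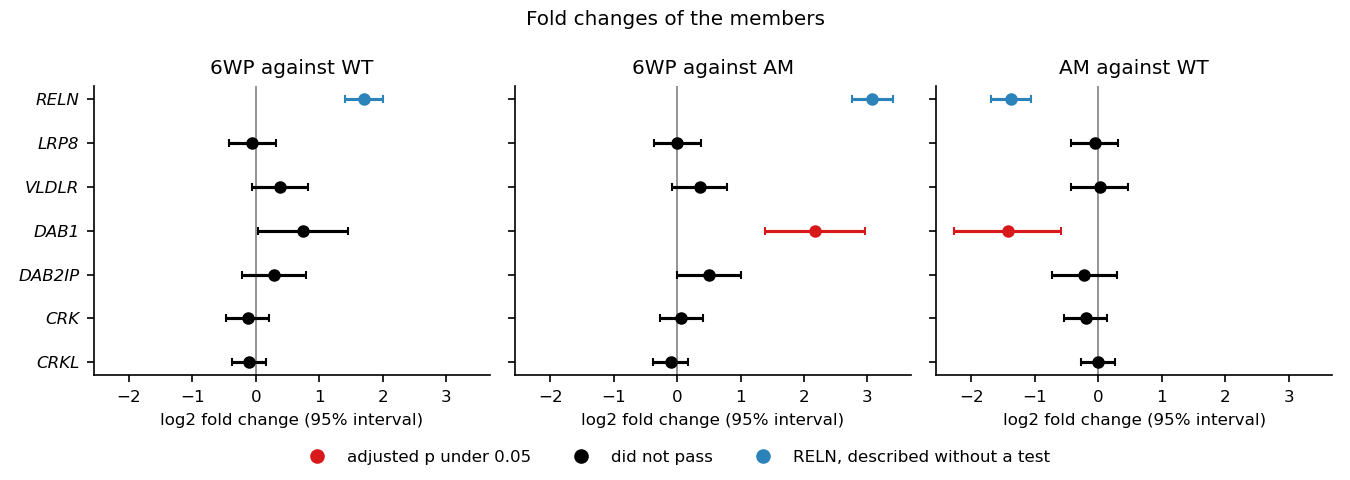
Log2 fold change of each member (x axis) with its 95% interval from edgeR, in 3 panels, 1 for each pair of groups, with genes on the y axis. DAB1 is called in 2 panels, at 2.17 and -1.43, while the intervals of LRP8, VLDLR, DAB2IP, CRK and CRKL include 0 in all 3, and RELN (blue) is shown without a test. The RELN intervals do not allow for its selection.

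Counted over the 6 partners of RELN, 0 were called in 6WP against WT cells by the quasi-likelihood test of edgeR, where 3.00% of all tested genes were called, 1.63% higher and 1.37% lower. At an unadjusted p under 0.05 the count was 1, DAB1, and DESeq2 called 0. In 6WP against AM cells 1 of 6 was called, DAB1, against 21.3% of all genes, 11.7% higher and 9.68% lower. The comparison of AM with WT cells also called 1 of 6, again DAB1, against 17.7% of all genes, 7.74% higher and 9.93% lower. A count of 1 in 6 is close to these shares. The median log2 fold change of the 6 partners was 0.11 for 6WP against WT, 0.21 for 6WP against AM and -0.13 for AM against WT, beside 0.01, 0.05 and -0.0023 over all genes. Without 6WP replicate 1 the partners called numbered 1, 2 and 1, and without 6WP replicate 2 they numbered 1, 2 and 1. Without an AM library the counts were 0 in all 3 comparisons, and without a WT library they were 0, 1 and 0.

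Levels of different genes were set side by side as CPM per kilobase of the canonical transcript. In WT cells the order was CRKL (30.6), CRK (29.5), DAB2IP (4.79), LRP8 (3.64), RELN (1.93), VLDLR (0.569) and DAB1 (0.222 CPM per kilobase), and no neighbours in this order overlapped. AM cells kept the same order, with RELN at 0.741 and DAB1 at 0.0810 CPM per kilobase. In 6WP cells RELN, at 6.27 CPM per kilobase, stood in the third place, above DAB2IP (5.83) and LRP8 (3.49), although its range overlapped that of DAB2IP. The ranges of CRKL and CRK also overlapped in these cells. The adaptors CRK and CRKL were thus far above the receptors, LRP8 was above VLDLR in every library, and DAB1 was the lowest member in every library. When the union of all annotated exons was used as the length, RELN came below DAB2IP in 6WP cells, and in AM cells it fell below VLDLR.

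**Figure D3:**
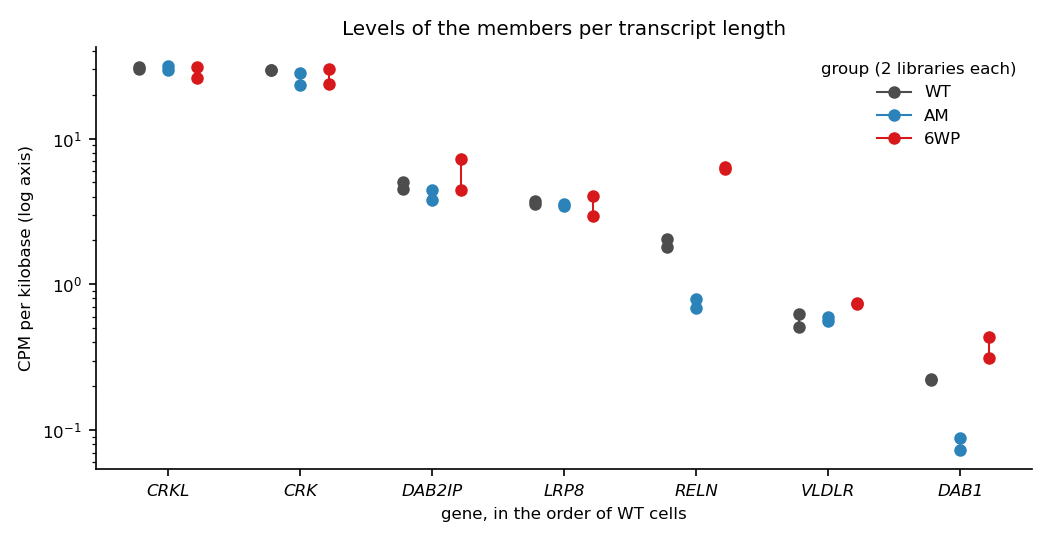
CPM per kilobase of the canonical transcript (log y axis) for the 7 members (x axis), with 2 joined points per group for its 2 libraries. RELN moves from the fifth place in WT and AM to the third place in 6WP cells, where it reaches 6.27 CPM per kilobase, and DAB1 is lowest throughout.

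Among 12036 genes with a mean of at least 1 log2 CPM, the pattern most like that of RELN over the 6 libraries was that of MKX, a homeobox factor of tendon, at a root mean square distance of 0.32 on the log2 scale after each gene was centred on its mean. CCDC85A (0.34), PAX1 (0.43), CABP1 (0.45) and KCNG1 (0.47) followed. MKX was at 3.30 and 3.54 CPM in WT, 1.21 and 1.06 in AM, and 9.15 and 6.10 in 6WP libraries. These genes were picked for closeness to RELN, so their order of AM, WT, 6WP follows from that choice and is no separate result. DAB1 was too low for this list. Its distance of 0.51 ranked 22nd among all 14671 other tested genes, with no minimum level. That rank uses the values on which RELN was selected, and DAB1 was added with earlier results known. It is therefore no evidence that DAB1 and RELN are regulated together. The distances of the other members lay between 1.10 for DAB2IP and 1.31 for CRKL, and the nearest of them ranked 2707. The points share the 6 libraries, and the distance is a description.

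**Figure D4:**
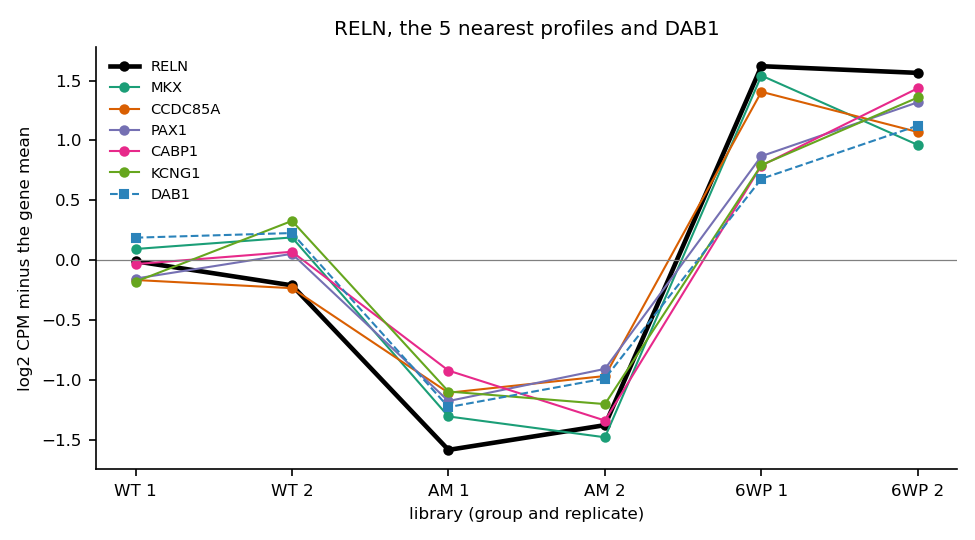
Log2 CPM minus the mean of each gene (y axis) in the 6 libraries (x axis) for RELN, the 5 genes with the nearest profiles and DAB1 (dashed). All 7 curves are lowest in the AM and highest in the 6WP libraries, which for the 5 genes follows from how they were picked. DAB1 runs at a distance of 0.51 from RELN.

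Other genes of the pathway were followed in 8 lists of 87 genes, of which 75 were tested and 12 had no more than 10 counts in any library. Among the untested, APOB, DCX and FGR were at 0 throughout. In 6WP against WT cells 1 of the 75 was higher and 2 were lower, beside 3.00% of all genes. In 6WP against AM cells 13 were higher and 3 lower, or 21.3% beside the same share of all genes. Between AM and WT cells 5 were higher in AM and 12 lower, or 22.7% beside 17.7%. The medians of the 75 were -0.0064, 0.09 and -0.07 in log2 fold change. These counts turned on single libraries, and in each such fit the spread of the shortened group came from the other groups. Leaving out either WT library or either AM library gave 0 pathway genes in 6WP against WT cells, while leaving out 6WP replicate 1 or 2 gave 20 and 16. In 6WP against AM cells each library left out moved the count, to 8 without either WT library, to 1 without either AM library, and to 39 and 26 without 6WP replicate 1 and 2. For AM against WT it was 1 and 2 without WT replicate 1 and 2, 2 and 1 without AM replicate 1 and 2, and 37 and 38 without 6WP replicate 1 and 2.

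Of the enzymes that cleave reelin, 4 of 9 were tested. MEP1A, the secreted protease meprin alpha, was at 8.62 and 6.80 CPM in WT, 2.24 and 1.62 in AM, and 3.22 and 2.82 in 6WP libraries. It fell in 6WP against WT cells (-1.35 in log2, standard error 0.24, adjusted p = 0.0322) and in AM against WT cells (-2.01, standard error 0.25, adjusted p = 0.00439). PLAT, tissue plasminogen activator, was higher in 6WP than in AM cells by a log2 fold change of 0.93 (adjusted p = 0.0453). FURIN, a proprotein convertase, was higher by 0.85 in the same comparison (adjusted p = 0.00703). Of the 4 tested, 1 was lower in each of the comparisons with WT cells, beside 3.00% (6WP) and 17.7% (AM) of all genes, and 2 were higher in 6WP against AM cells, beside 21.3%.

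Of the other ligands of the receptors, 5 of 6 were tested. In AM against WT cells 1 was higher and 2 were lower, beside 17.7% of all genes. In 6WP against AM cells 2 were higher and 1 was lower, beside 21.3%. None passed in 6WP against WT cells, beside 3.00%. CLU, the chaperone clusterin, was at 832 and 775 CPM in WT, 1566 and 1477 in AM, and 823 and 665 in 6WP libraries. It rose in AM against WT cells (log2 fold change 0.92, adjusted p = 0.00666) and was lower in 6WP than in AM cells (-1.03, adjusted p = 0.00394), in both cases the opposite sign to RELN. Its 6WP and WT ranges overlapped, and 6WP against WT did not pass (-0.11, adjusted p = 0.661). SELENOP, the selenium carrier, fell in AM cells (-0.91, adjusted p = 0.0101) and was higher in 6WP than in AM cells (0.75, adjusted p = 0.0153). THBS1, a matrix glycoprotein, fell in AM cells (-0.68, adjusted p = 0.0249), and APOE, an apolipoprotein, was higher in 6WP than in AM cells (1.41, adjusted p = 0.0239).

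Among 12 tested genes of the lipoprotein receptor family, 5 were lower and 1 higher in AM against WT cells, where 17.7% of all genes were called. In 6WP against WT cells 1 was lower, beside 3.00% of all genes. In 6WP against AM cells 2 were higher and 1 lower, beside 21.3%. LRP1, an endocytic receptor, was at 16.6 and 20.1 CPM in WT, 3.01 and 4.39 in AM, and 9.47 and 18.0 in 6WP libraries. Its log2 fold change was -2.29 in AM against WT cells (adjusted p = 0.00631) and 1.87 in 6WP against AM cells (adjusted p = 0.00903). LRP2, LRP1B and SORL1 fell in AM cells as well, by log2 fold changes of -2.00, -1.80 and -1.15, with adjusted p = 0.0182, 0.0268 and 0.00768 from edgeR. LRP1B was higher in 6WP than in AM cells (1.47, adjusted p = 0.0424), on 6 to 38 counts per library.

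Downstream of the receptors, FYN, a kinase that phosphorylates DAB1, was at 4.29 and 5.37 CPM in WT, 4.43 and 5.24 in AM, and 17.4 and 7.96 in 6WP libraries. Of 5 tested Src family kinases it was called in 6WP against AM cells, beside 21.3% of all genes (log2 fold change 1.38, adjusted p = 0.0275), and against WT cells the value was 1.39 (adjusted p = 0.0759). The 6WP replicates of FYN were far apart, although both lay above all other libraries. MAPT, which encodes tau, fell in AM cells (-0.89, adjusted p = 0.0330) and was higher in 6WP than in AM cells (1.20, adjusted p = 0.0113). CDK5, a kinase that acts beside reelin in neurons, rose in AM against WT cells (0.52, adjusted p = 0.0208). Of 14 tested genes of the PI3-kinase branch, 1 was higher and 1 lower in each of these comparisons, beside 17.7% and 21.3% of all genes, and the lower one in 6WP against AM cells was PIK3CB (-0.41, adjusted p = 0.0291), named after its value was seen.

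In the CRK and RAP1 branch, which controls adhesion, ITGA5 had the largest difference. This fibronectin receptor subunit was at 25.9 and 28.7 CPM in WT, 7.62 and 8.10 in AM, and 28.5 and 39.4 in 6WP libraries. It fell in AM cells (log2 fold change -1.79, adjusted p = 0.00258) and was higher in 6WP than in AM cells (2.11, adjusted p = 0.00180). ITGA3, another integrin subunit, fell in AM cells by 0.54 on the log2 scale (adjusted p = 0.0382) and was higher by 0.54 in 6WP than in AM cells (adjusted p = 0.0342). GAB1, a docking protein, fell in AM cells (-0.96, adjusted p = 0.0117), and NEDD9, a scaffold that binds CRK, was higher in 6WP than in AM cells (0.68, adjusted p = 0.0293). Of its 14 tested genes, 3 fell in AM cells and 3 were higher in 6WP cells than in these, or 21.4% in each case, near the 17.7% and 21.3% of all genes.

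Among 11 tested cytoskeleton targets, CDC42EP1, a CDC42 effector, was at 34.1 and 42.8 CPM in WT, 28.5 and 37.4 in AM, and 107 and 74.7 in 6WP libraries. It rose in 6WP against WT (log2 fold change 1.24, adjusted p = 0.0275) and was higher than in AM cells (1.46, adjusted p = 0.00553). PAFAH1B3, a catalytic partner of LIS1, rose in AM against WT cells (0.51, adjusted p = 0.0461). Each comparison called 1 of the 11. Of all genes, 3.00% were called in 6WP against WT, 21.3% in 6WP against AM and 17.7% in AM against WT cells. Of 10 genes of receptor trafficking and turnover, MYLIP, a ligase that marks VLDLR and LRP8 for degradation, was higher in 6WP than in AM cells (0.72, adjusted p = 0.0254). In AM against WT cells SNX17, which recycles these receptors, was higher by 0.43 (adjusted p = 0.0448 from edgeR). MYLIP and SNX17 were each the only 1 of the 10 called in these comparisons, beside 21.3% and 17.7% of all genes. LRP11, of the lipoprotein receptor family, was higher by 0.37 in AM against WT cells (adjusted p = 0.0481 from edgeR). Both SNX17 and LRP11 were named after their values were seen.

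**Figure D5:**
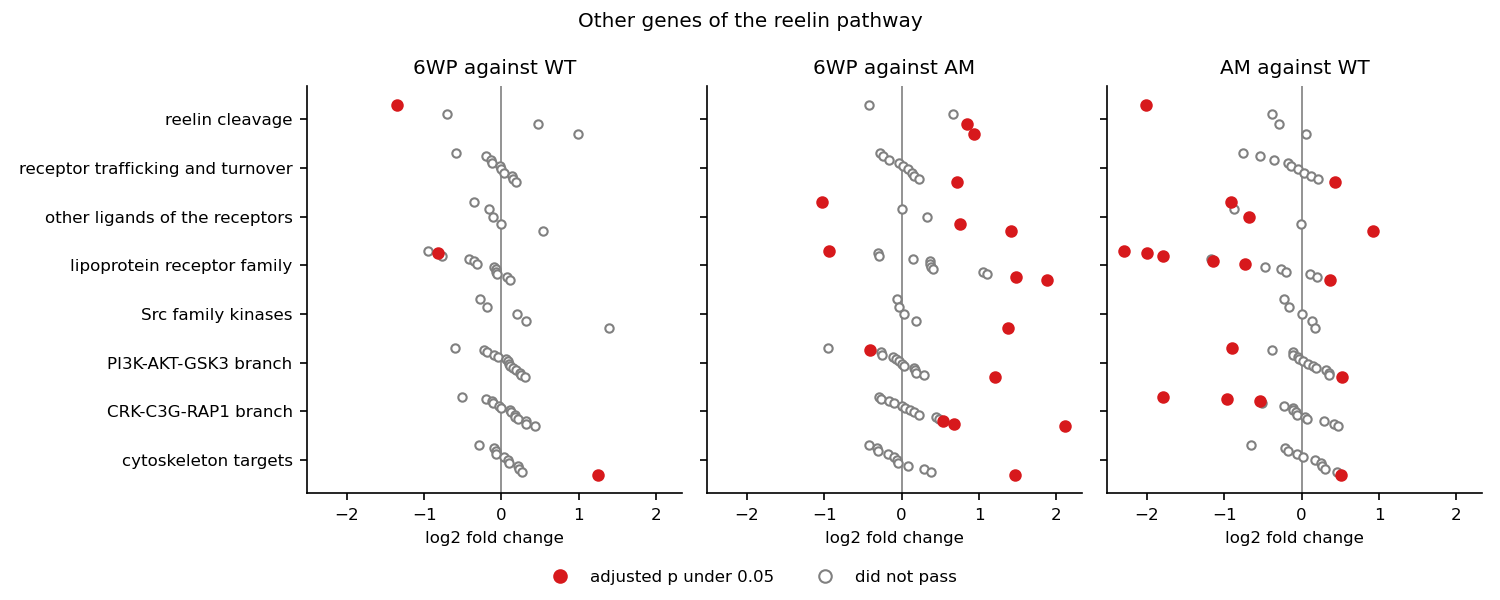
Log2 fold change (x axis) of the 75 tested pathway genes in 8 lists (y axis), with 1 panel per comparison, where filled red points have an adjusted p under 0.05 and open points do not. Red points number 3 in 6WP against WT, 16 in 6WP against AM and 17 in AM against WT cells.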

How the data were processed

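RNA was extracted with TRI reagent, cleaned on columns and prepared with a stranded TruSeq protocol, and 100 bp single-end reads were sequenced. The authors deposited whole-number counts per gene symbol, not normalized. The submitters' processing notes name STAR 2.5.3a, featureCounts 1.5.3, StringTie 1.3.3, edgeR 3.22.3, R 3.5.0 and hg38. The strand setting of the counting is not given in the sources used here.

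From the deposited counts, edgeR 4.0.16 in R 4.3.3 was used with TMM factors, filterByExpr and the quasi-likelihood test on all 6 libraries without a covariate. P-values were two-sided, adjusted by the Benjamini-Hochberg method over 14672 genes and called under 0.05. An exact permutation test on 2 against 2 libraries could go no lower than p = 0.333. Each standard error was derived from the fold change and its F statistic. The 95% intervals use edgeR's residual and prior degrees of freedom together, 8.04 for each member. The prior part is borrowed across genes, and intervals on the residual part alone would be wider. The intervals thus include the spread between libraries, while the floors for low counts cover counting error only. CPM are TMM-scaled. DESeq2 1.42.0, other scalings and filters, 2 groups only, a replicate block and each library left out served as alternatives. The fitting code was tested on simulated counts.

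The members and lists were chosen with earlier results of these data known. Every member was named, and some listed genes are not reported here by name. From each list at most 4 genes were named, those called with an absolute log2 fold change above 0.5 and the largest differences. PIK3CB, LRP11 and SNX17 fall outside this rule and were named after their values were seen. The 5 genes most like RELN were those with the smallest root mean square distance of centred log2 CPM (prior count of 2). Gene positions came from GENCODE 44 and promoter windows from RefSeq.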

Additional observations from a re-analysis of the deposited data

How the results depend on the processing

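Over 291 recomputed fold changes of members, 256 stayed the same and 35 did not. For the partners this meant the same direction and the same side of the threshold. For RELN, which had no test, it meant the same direction and a shift smaller than the combined SD of the compared libraries. The cause was not tested in any case. The number of genes called in 6WP against WT cells, 440, was 894 without a filter, 1053 with DESeq2 and 96 with only the 2 groups compared, and lay between 0 and 3870 with libraries left out. In 6WP against AM cells the 3131 genes became 1309 with only these groups, and 116 to 6807 with libraries left out. In AM against WT cells the 2593 genes became 6620 and 67 to 6654.

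With the replicate number as a replicate block, 393, 3069 and 2485 genes were called in the same order. Deviations of same-numbered libraries correlated at 0.087, -0.021 and 0.040 across genes, so the numbers were not taken to pair the libraries. No partner gained or lost a call under the block.

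Partners called with libraries left out ranged from 0 to 1 in 6WP against WT, 0 to 2 in 6WP against AM and 0 to 1 in AM against WT cells. A minimum of 10 counts in every library removed DAB1 and left 0 in both comparisons with AM cells, and DESeq2 left 0 in AM against WT cells.

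Under these alternatives signs turned for LRP8, VLDLR, DAB2IP, CRK and CRKL, and not for RELN or DAB1. LRP8 in 6WP against AM cells was -0.027 with DESeq2 size factors, -0.0014 without a filter, -0.035 with DESeq2, -0.014 with only the 2 groups and -0.0097 under the replicate block. VLDLR in AM against WT cells was -0.068 with upper quartile factors and -0.037 with library size only. CRKL in AM against WT cells was 0.0033 with DESeq2 size factors and 0.012 with DESeq2. With libraries left out, 6WP against WT gave -0.32 to 0.13 for LRP8, -0.14 to 0.58 for DAB2IP, -0.34 to 0.016 for CRK and -0.27 to 0.0020 for CRKL. Likewise 6WP against AM gave -0.27 to 0.20 for LRP8, -0.15 to 0.23 for CRK and -0.27 to 0.021 for CRKL. In AM against WT cells the ranges were -0.11 to 0.20 for VLDLR and -0.061 to 0.025 for CRKL. Where a library was left out, the lone one of its group was assumed to vary like the others. Without a 6WP library the spread was that of the WT and AM pairs, which differed less. Calls from those fits therefore do not measure the spread of 6WP cells. Depth limits DAB1 most, at 9 to 65 counts.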

Other observations

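Genes beside RELN and DAB1 were looked at after the values of both had been seen. Of 6 tested protein-coding genes within 500000 bp of RELN, none passed in edgeR's comparison of 6WP with WT cells, with log2 fold changes from -0.63 for NAPEPLD (adjusted p = 0.156) to 0.37 for ORC5 (adjusted p = 0.122), the lowest adjusted p of the 6. PSMC2 was lower in 6WP than in AM cells (-0.56, adjusted p = 0.0133) and higher in AM than in WT cells (0.49, adjusted p = 0.0233), the opposite directions to RELN. ORC5 was higher in AM than in WT cells (0.41, adjusted p = 0.0482).

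Of 5 such genes near DAB1, JUN, an AP-1 factor, and PRKAA2, a catalytic subunit of AMP-activated kinase, moved in the same directions as DAB1. JUN fell in AM against WT cells (-1.10, adjusted p = 0.0264) and was higher in 6WP than in AM cells (1.08, adjusted p = 0.0236). PRKAA2 fell by 1.18 on the log2 scale in AM against WT cells (adjusted p = 0.00998) and was higher by 0.91 in 6WP than in AM cells (adjusted p = 0.0187). Neither passed in 6WP against WT cells, with log2 fold changes of -0.02 for JUN and -0.27 for PRKAA2.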
